A study of Homo sapiens with 9 samples.

Results

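Receptor tyrosine kinases are the cell-surface receptors at which many kinase inhibitors are aimed, and their messenger RNAs were examined here in NCI-H1155 (H1155) lung cancer cells given foretinib or cabozantinib. The set was 56 human receptor tyrosine kinase genes, chosen by gene symbol and not by any measured value, and all 56 were found among the 23369 genes of the deposited expression table. H1155 is an established line of non-small cell lung cancer with neuroendocrine traits. RNA sequencing covered 3 groups of 3 libraries, described by the labels as biological triplicates: cells with DMSO, the solvent control, cells with 1 µM foretinib, and cells with 1 µM cabozantinib. Drug was added 24 h after plating and cells were collected 4 h later, and all 9 libraries came from this 1 line in medium with serum. Libraries carry their title numbers: DMSO 2, 4 and 5, cabozantinib 3, 4 and 5, foretinib 1, 2 and 4.

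A receptor tyrosine kinase carries a ligand-binding part outside the cell and a kinase inside it. Ligand brings receptors together, the kinases phosphorylate tyrosines, and adaptors that dock there pass the signal to the RAS-MAPK and PI3K-AKT pathways. A few family members, among them RYK, PTK7, ERBB3, EPHA10 and EPHB6, have a kinase domain with little or no catalytic activity and act through partner receptors. Foretinib and cabozantinib share a quinoline core joined to a cyclopropane dicarboxamide, and foretinib bears a morpholinopropoxy chain where cabozantinib bears a methoxy group. Both compete with ATP at several receptor kinases, of which MET and KDR (VEGFR2) are the best known. They act on the protein, so a transcript level says whether the receptor's message was there, not how far its kinase was inhibited.

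The 56 genes included receptors whose message was abundant in every library and others that no library showed, and the promoters of 4 of them are printed to show the range of sequence among the set. Each is the 250 bases before the RefSeq transcription start in GRCh38.p14, 5′ to 3′ on the gene's own strand, with every CpG in capitals. IGF1R (chr15:98648289-98648538, plus strand) and RYK (chr3:134250860-134251109, minus strand) were above 0 in all 9 libraries and held 48 and 34 CpG. MET (chr7:116671946-116672195, plus strand) and TEK (chr9:27108975-27109224, plus strand) were listed at 0 in all 9 and held 24 and 5 CpG.
IGF1R: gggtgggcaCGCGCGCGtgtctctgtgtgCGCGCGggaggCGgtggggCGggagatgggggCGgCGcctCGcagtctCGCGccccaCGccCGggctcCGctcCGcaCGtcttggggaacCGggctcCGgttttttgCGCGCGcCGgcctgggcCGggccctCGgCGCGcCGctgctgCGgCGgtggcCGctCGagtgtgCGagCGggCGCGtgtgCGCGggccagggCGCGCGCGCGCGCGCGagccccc
RYK: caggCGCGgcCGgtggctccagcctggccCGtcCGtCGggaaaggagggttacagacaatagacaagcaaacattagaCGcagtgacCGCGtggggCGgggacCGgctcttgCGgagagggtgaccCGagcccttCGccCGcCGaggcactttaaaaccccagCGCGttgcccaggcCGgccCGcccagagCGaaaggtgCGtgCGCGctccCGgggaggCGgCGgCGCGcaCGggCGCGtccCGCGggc
MET: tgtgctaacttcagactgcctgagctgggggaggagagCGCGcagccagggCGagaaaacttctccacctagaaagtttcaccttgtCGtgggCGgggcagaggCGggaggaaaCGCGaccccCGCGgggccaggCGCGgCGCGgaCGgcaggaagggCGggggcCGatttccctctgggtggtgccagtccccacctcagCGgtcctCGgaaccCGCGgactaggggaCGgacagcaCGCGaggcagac
TEK: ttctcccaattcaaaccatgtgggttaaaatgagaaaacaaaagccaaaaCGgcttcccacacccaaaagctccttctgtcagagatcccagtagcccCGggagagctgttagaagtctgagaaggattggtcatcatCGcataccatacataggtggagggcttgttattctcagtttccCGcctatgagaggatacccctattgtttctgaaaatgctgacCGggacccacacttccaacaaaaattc

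Of the 56 genes, 51 had an entry in the RefSeq promoter table, and where a gene had several starts the 1 with the most CpG was taken. The median number of CpG was 25.0 in the 11 matched genes above 0 in all 9 libraries (15 to 48), 24.5 in the 22 matched genes above 0 in some, and 16.0 in the 18 matched genes at 0 in all 9 (1 to 40). At least 20 CpG were found in 90.9%, 68.2% and 38.9% of these 3 sets and in 36.0% of all 27305 genes of the promoter table. The silent receptors were a mixed set: FGFR3, KIT and NTRK2 had 40, 34 and 31 CpG, whereas TIE1, MUSK and ROS1 had 1, 3 and 3. The GC box, searched as GGGCGG and its reverse complement CCGCCC, was found in 90.9%, 72.7% and 72.2% of the 3 sets and in 44.9% of all genes. These are counts of letters, and methylation of the sites was not measured.

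The values analysed are normalised read counts, that is, reads assigned to a gene divided by a scaling factor for the library. The libraries held 26996023 to 34062153 reads assigned to genes, and the 56 receptors together took 0.0540% to 0.0784% of them. A gene was tested where its value was 10 or more in at least 3 libraries, which held for 12642 genes. The foretinib libraries stood apart: 16.3% to 21.0% of the tested genes were listed at 0 in each of them, against 5.30% to 10.9% in DMSO and 4.41% to 5.48% in cabozantinib. Neuroendocrine markers fitted the labelled line, since 12 such genes summed to between 80043 and 93041 in every library. Of the 12, 11 were above 0 in all 3 DMSO libraries, and GRP was at 0. Epithelial markers were mixed, with 4 of 8 above 0 in all 3 DMSO libraries. KRT8 and KRT18 averaged 1693 and 3522 in DMSO, KRT19 was at 0 in all 9 libraries, and CDH1 read 23.3, 0 and 84.2 in DMSO and 0 in every foretinib library. Endothelial markers summed to at most 87.4, with 6 of 8 at 0 in all 9 libraries, leukocyte markers to at most 755, with 6 of 8 at 0, and fibroblast markers to at most 1345, with 5 of 8 at 0. In cells measured in bulk, fewer cells of a type and less RNA per cell cannot be told apart.

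In DMSO, 25 of the 56 receptors (44.6%) were above 0 in all 3 libraries, 10 (17.9%) in 1 or 2, and 21 (37.5%) were at 0 in all 3. Over all genes of the table the shares were 45.4%, 14.5% and 40.1%, so receptors were detected about as often as genes in general. High levels were less frequent: a mean of 1000 or more over the 9 libraries was reached by 6 receptors (10.7%) and by 23.5% of all genes. These 6 were LMTK2, IGF1R, FGFR1, ROR2, PTK7 and RYK. RYK averaged 961 in DMSO and 860 in cabozantinib, and passed 1000 only through its foretinib mean of 1600. By the DMSO mean alone, 5 receptors (8.93%) and 23.3% of all genes reached 1000. At the other end, 19 receptors (33.9%) were at 0 in all 9 libraries, against 35.1% of all genes, and 13 (23.2%) were above 0 in all 9, against 34.5%.

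Whole branches of the family were without reads. The angiopoietin receptors TIE1 and TEK, the neurotrophin receptors NTRK2 and NTRK3, the agrin receptor MUSK, and ROS1 were at 0 in all 9 libraries. So were ERBB4, the neuregulin receptor; INSRR, the alkali-sensing relative of the insulin receptor; PDGFRB, CSF1R and KIT of the PDGF receptor branch; KDR, the main VEGF receptor of endothelium; FGFR3; MET, the HGF receptor; LTK; and the ephrin receptors EPHA1, EPHA6, EPHA7 and EPHB1. A further 4 receptors never reached 10 in any library. AXL was at 0.979 in DMSO 5 and 3.99 in cabozantinib 4, FLT1 at 3.92 in DMSO 5 and 0.960 in foretinib 2, FGFR2 at 8.64 in foretinib 2, and EPHA3 at 0.993 in cabozantinib 3. None of these 4 was above 0 in all libraries of a group.

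**Figure D1:**
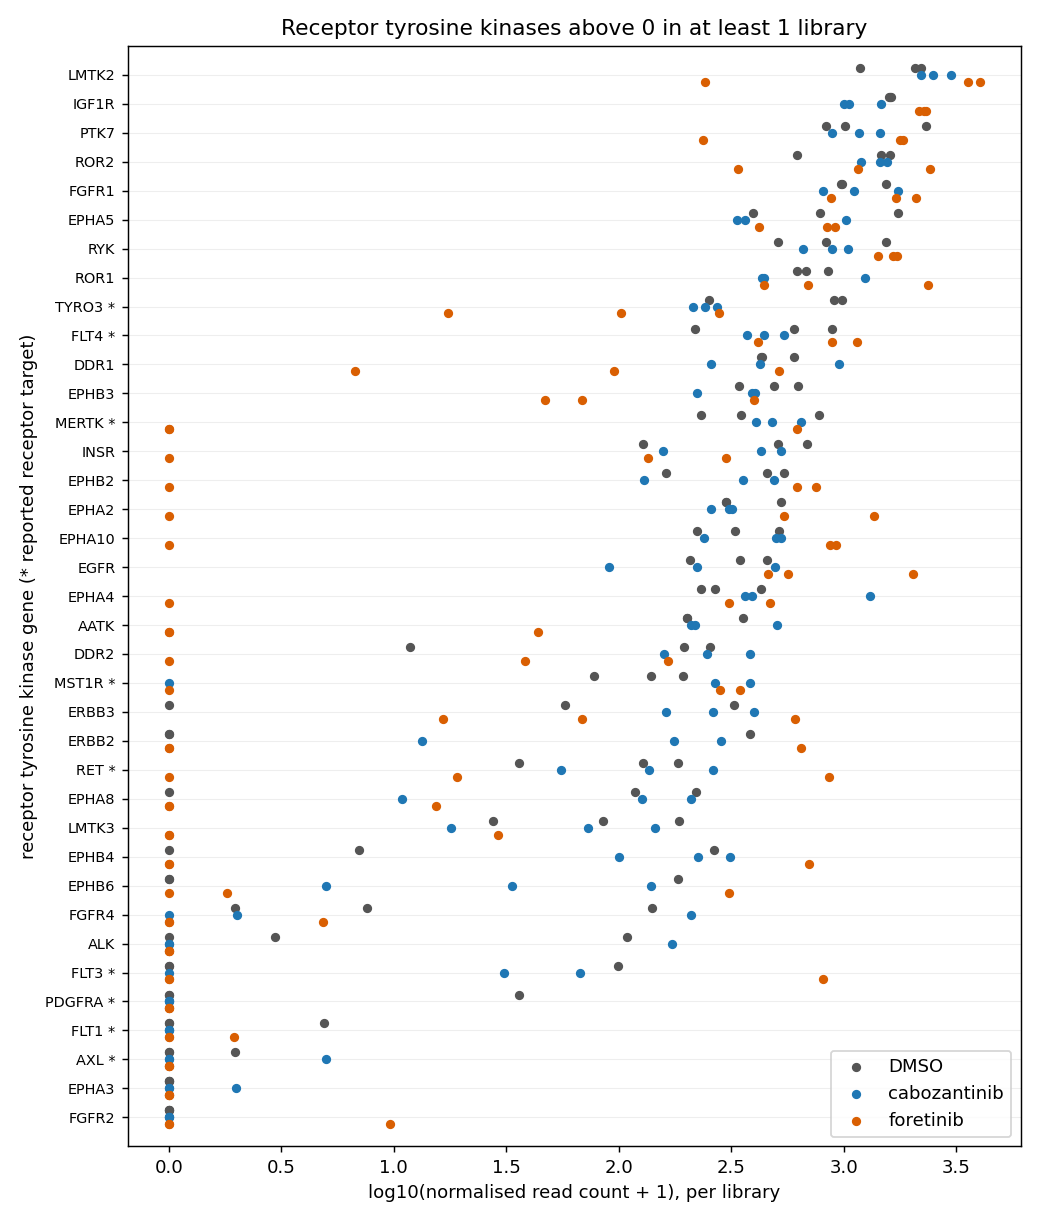
Level of each receptor tyrosine kinase that was above 0 in at least 1 library, as log10(normalised read count + 1) on the horizontal axis. Each point is 1 library and colour marks the group. Receptors listed here as reported targets of either compound carry an asterisk. IGF1R, FGFR1, ROR2, PTK7, RYK and LMTK2, whose means over all 9 libraries reached 1000, carry none.

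The 6 abundant receptors differed in how closely their libraries agreed. IGF1R, the receptor for insulin-like growth factors, read 1610, 1590 and 1629 in DMSO 2, 4 and 5, a mean of 1610 ± 19.4 (SD, n = 3). FGFR1, a fibroblast growth factor receptor, read 984, 1533 and 971. IGF1R was the steadiest of the 6 in DMSO, while the highest FGFR1 library stood well above the other two. ROR2, a receptor for WNT5A, read 617, 1611 and 1470, and PTK7, a Wnt co-receptor without kinase activity, read 2332, 1011 and 836. RYK, a Wnt-binding receptor without kinase activity, read 511, 830 and 1544, and LMTK2, a membrane-bound kinase grouped with this family that phosphorylates serine and threonine, read 2063, 1182 and 2199. DMSO 2 was the lowest library for ROR2 and RYK and the highest for PTK7.

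Levels can be set against each other between genes only per unit of length, and per coding kilobase the 6 could not be ranked. Per kilobase of coding sequence (GENCODE v29 lengths), the DMSO level was 525 for RYK, 454 for FGFR1, 436 for ROR2, 431 for PTK7, 402 for LMTK2 and 393 for IGF1R. By library, RYK ran from 279 to 844 per coding kilobase, ROR2 from 218 to 570, PTK7 from 259 to 721 and IGF1R from 388 to 397, so each neighbour in this order overlapped the next. After them came EPHA5 at 314, TYRO3 at 267, ROR1 at 255 and DDR1, a collagen receptor, at 177 per coding kilobase. Per kilobase of all exons, RYK at 327 lay above 78.7% of the genes with a known length and IGF1R at 132 above 64.2%. The order differed on that scale, with ROR2 at 254, PTK7 at 239, LMTK2 at 203 and FGFR1 at 178 between them. Ranges by library were not examined per exon kilobase.

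Next came receptors whose mean over the 9 libraries was below 1000. By the DMSO mean alone EPHA5, at 977, stood above RYK, at 961. ROR1 read 853, 677 and 619 in DMSO, EPHA5, a neuronal ephrin-A receptor, read 396, 785 and 1749, and FLT4 (VEGFR3), the lymphatic VEGF receptor, read 598, 886 and 218. In the ERBB branch EGFR read 457, 345 and 206, ERBB2 read 0, 382 and 0, and ERBB3 read 0, 326 and 56.8. EGFR was thus found in every DMSO library, whereas ERBB2 reads came from 1 library and ERBB3 reads from 2. Among the ephrin receptors, EPHA2, EPHA4, EPHA10, EPHB2 and EPHB3 each averaged between 309 and 486 in DMSO and were above 0 in all 3 libraries, EPHB4 read 0, 6.03 and 263, and EPHA8 read 0, 220 and 117. INSR, the insulin receptor, read 127, 508 and 683, and DDR2, the other collagen receptor, read 253, 194 and 10.8.

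Of the 56 genes, 16 were listed here as encoding receptors that foretinib, cabozantinib or both have been reported to inhibit. The list may not hold every such receptor. The message of most of these 16 was low or unseen. MET, KDR, KIT, PDGFRB, TEK, ROS1 and NTRK2, 7 of the 16, were at 0 in all 9 libraries, and AXL, FLT1 and PDGFRA were too low to test, PDGFRA with 35.2 in DMSO 5 and 0 elsewhere. Of the 16, 5 were above 0 in all 3 DMSO libraries: TYRO3, FLT4, MERTK, MST1R and RET. None of the 16 had a mean of 1000 or more. FLT3, the cytokine receptor of blood progenitors, read 97.9 in DMSO 5, 66.6 and 29.9 in cabozantinib 3 and 4, 805 in foretinib 1, and 0 in the other 5 libraries. Summed over the 16, the values were 2101, 2114 and 1866 in DMSO, 1550, 1524 and 1738 in cabozantinib, and 2694, 1838 and 1242 in foretinib. Without TYRO3 they were 1120, 1862 and 961 in DMSO, 1308, 1311 and 1465 in cabozantinib, and 2677, 1561 and 1141 in foretinib, with all 3 groups overlapping.

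The TAM receptors TYRO3, AXL and MERTK bind PROS1 and GAS6, dampen inflammation and clear dying cells. They held much of that sum in DMSO, a mean of 1163 of 2027, and less of it in foretinib, 339 of 1925. In cabozantinib they held 755 of 1604. TYRO3 read 982, 251 and 905 in DMSO, 241, 212 and 273 in cabozantinib, and 16.4, 278 and 101 in foretinib. MERTK read 349, 773 and 230 in DMSO, 480, 648 and 408 in cabozantinib, and 621, 0 and 0 in foretinib. Neither gene alone separated the groups. Their sum with AXL, looked at after the values were seen and not tested, was 1163 ± 155 in DMSO, 755 ± 96.1 in cabozantinib and 339 ± 273 in foretinib (mean ± SD, n = 3 each). The TAM sum was picked from the sums of all subfamilies of the set, and these differed in direction. That of the collagen receptors DDR1 and DDR2 was also lowest in foretinib, at 639 ± 36.7, 805 ± 339 and 273 ± 237 in the same order. Other sums had their highest mean in foretinib. Among them were the insulin receptor branch, at 2049 ± 290, 1544 ± 368 and 2397 ± 155, and the ERBB branch, at 591 ± 412, 700 ± 142 and 1466 ± 1086. In foretinib the TAM sum contained 2 zeros of MERTK, and of all genes whose mean in the other groups lay between 300 and 600, 20.3% of the foretinib values were zeros; the part of these zeros in the sum was not tested.

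The remaining detected targets varied as much within groups as between them. FLT4 read 440, 369 and 540 in cabozantinib and 889, 417 and 1141 in foretinib, overlapping DMSO in both. MST1R, the receptor for macrophage-stimulating protein, read 138, 76.3 and 193 in DMSO, 267, 0 and 382 in cabozantinib, and 345, 282 and 0 in foretinib. RET, the receptor for GDNF-family ligands with GFRA co-receptors, read 34.9, 127 and 182 in DMSO, 54.6, 261 and 135 in cabozantinib, and 18.1, 860 and 0 in foretinib. A single foretinib library carried nearly all of the RET reads of that group.

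**Figure D2:**
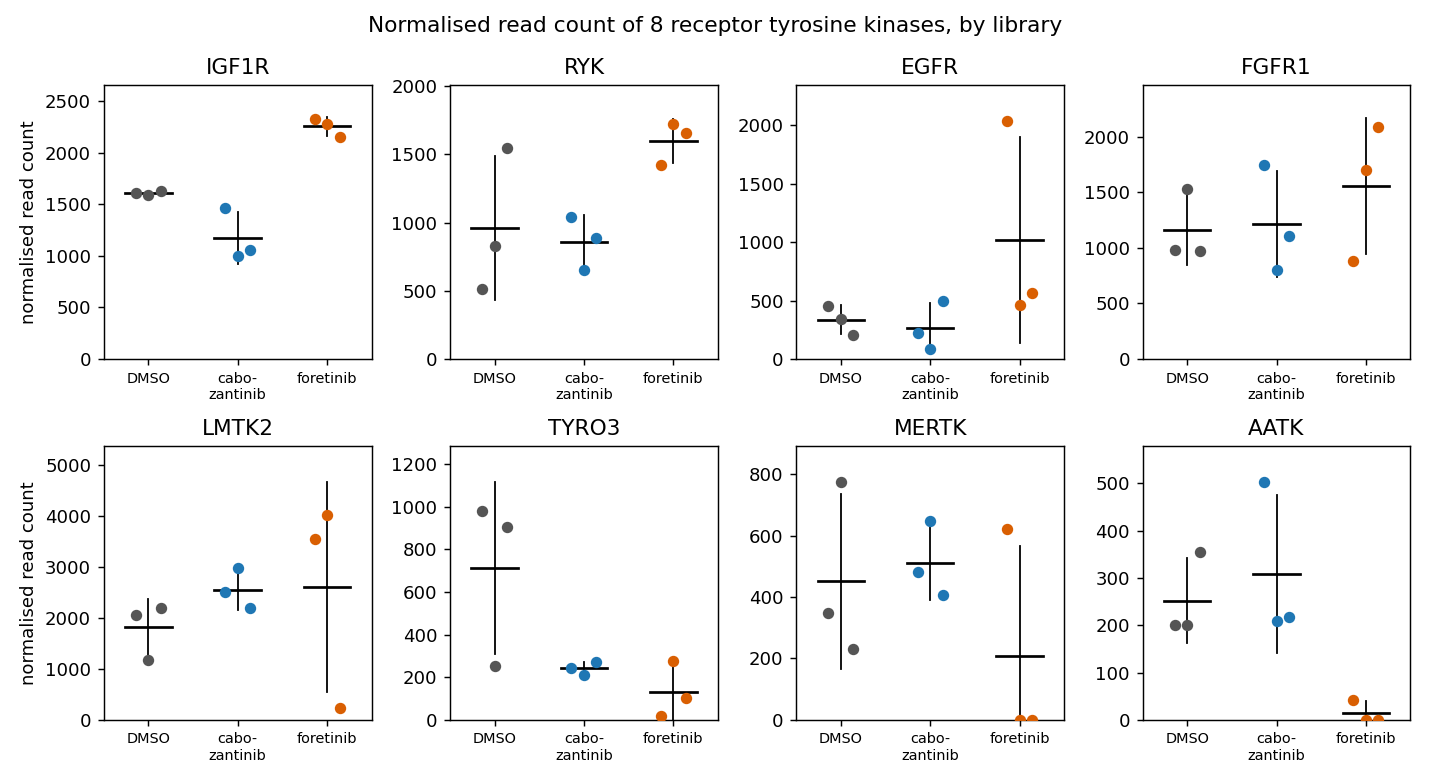
Normalised read count of 8 receptors by library, with the group mean (horizontal line) and 1 SD (vertical line, ended at 0 where it would go below). IGF1R is the receptor whose 3 groups do not overlap, with foretinib highest between 2154 and 2329 and cabozantinib lowest between 1002 and 1464. MERTK and AATK show foretinib libraries at 0.

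Foretinib was compared with DMSO in a limma fit over all 12642 tested genes on the log2(value + 1) scale, which included 30 of the 56 receptors. Fold changes below are on that scale, and adjusted p-values use the Benjamini-Hochberg method over all tested genes. The other 26 receptors comprised the 19 at 0 everywhere and 7 with too few values: PDGFRA, FLT1, FGFR2, FGFR4, AXL, EPHA3 and ALK. FGFR4 was highest at 209 in cabozantinib 3 and ALK at 171 in cabozantinib 4.

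No receptor passed an adjusted p of 0.05 in foretinib against DMSO by limma (0 of 30), and neither did any other gene (0% of those tested). On the recovered whole reads edgeR called 0 of 30 receptors and 0% of all genes. DESeq2 called 0 of the 29 receptors to which it gave an adjusted p, beside 656 genes or 5.43% of all genes with one, and it gave AATK none. At an unadjusted p below 0.05, 0 receptors were higher (2.17% of all tested genes) and 2 were lower, MERTK and AATK (6.90% of all tested genes). Groups without any overlap were found for 2 receptors higher with foretinib, IGF1R and EGFR (3.99% of all tested genes), and for 1 lower, AATK (7.69% of all tested genes). Each receptor count lay within 2 of the number that the share over all genes gives for 30.

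IGF1R read 2329, 2276 and 2154 in foretinib, all above the DMSO range of 1590 to 1629. The means were 2253 ± 90.0 and 1610 ± 19.4, a ratio of 1.40, with a log2 fold change of 0.48 (SE 0.38, 95% interval -0.34 to 1.30, limma adjusted p = 0.639). The fit takes its spread from all 3 groups and partly from other genes of like level, so it is wider than the spread within DMSO. Over the 19 alternative analyses the IGF1R value ran from 0.39 to 0.52 and the adjusted p from 0.523 to 0.971. EGFR, whose values were picked out for their lack of overlap, read 2033, 461 and 566 in foretinib, all above its highest DMSO value of 457, by a small margin in foretinib 2. Its log2 fold change was 1.34 (95% interval -1.10 to 3.78, limma adjusted p = 0.665).

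AATK, a brain-enriched kinase of the LMTK branch, read 200, 201 and 355 in DMSO and 42.8, 0 and 0 in foretinib. It was lower in all 3 foretinib libraries, with a log2 fold change of -6.11 (SE 2.33, 95% interval -11.12 to -1.10, limma adjusted p = 0.497, unadjusted p = 0.0204). MERTK gave -5.54 (95% interval -10.87 to -0.21, limma adjusted p = 0.531), although foretinib 1, at 621, lay within the DMSO range. For genes with a mean of 100 to 300 in the other groups, the band of AATK, 45.8% of all foretinib values were zeros, and for the receptors of that band the share was also 45.8% (11 of 24 values). Both values depended on how zeros enter: AATK gave -4.17 by edgeR, -4.14 by DESeq2 and -1.62 at a pseudocount of 100, and MERTK gave -1.16, -1.13 and -1.39. Without foretinib 1, MERTK gave -8.63. The ratio of the means was 0.0565 for AATK and 0.459 for MERTK.

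LMTK3, a relative of AATK, read 26.6, 84.4 and 184 in DMSO and 0, 0 and 28.2 in foretinib, and its log2 fold change was -4.62 (95% interval -9.83 to 0.59, limma adjusted p = 0.531). TYRO3 gave -2.94 (95% interval -6.25 to 0.37, limma adjusted p = 0.531), with foretinib 2 above the lowest DMSO library. DDR1 read 428, 434 and 599 in DMSO and 516, 5.76 and 94.1 in foretinib, giving -2.80 (95% interval -6.35 to 0.76, limma adjusted p = 0.547). In these 3 receptors the groups overlapped, and each interval included 0. At a pseudocount of 100 they gave -0.79, -1.81 and -1.32, and LMTK3 gave -0.44 after quantile normalisation. DDR1 gave -1.28 by edgeR, and without foretinib 2 it gave -1.12.

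The other 5 abundant receptors did not separate foretinib from DMSO. RYK entered this set through its foretinib values, so its comparisons with foretinib are not independent of that choice. FGFR1 read 881, 1704 and 2084 in foretinib (log2 fold change 0.36, 95% interval -0.76 to 1.49), and RYK read 1420, 1725 and 1655 (0.88, -0.33 to 2.08). PTK7 read 1833, 237 and 1786 (-0.45, -2.08 to 1.19), ROR2 read 1152, 2417 and 337 (-0.21, -1.69 to 1.27), and LMTK2 read 3559, 4030 and 240 (-0.21, -1.96 to 1.54). PTK7 was low in foretinib 2, and ROR2 and LMTK2 were low in foretinib 4, while ROR1 was at its highest in foretinib 4, at 2361. Without foretinib 4, LMTK2 gave 1.11 and ROR2 gave 0.56, so both signs turned. Without DMSO 2, RYK gave 0.49.

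Across the 30 tested receptors the median log2 fold change was -0.97 for foretinib against DMSO, with 10 higher and 20 lower, beside -0.34 over all tested genes. Both medians differed by level: in the band of 300 to 600 the median was -2.32 for 10 receptors and -1.71 for all genes, whereas in the band of 1000 to 3000 it was 0.08 for 6 receptors and -0.08 for all genes. These bands go by the mean over all libraries, foretinib included. The median was not stable either, being 0.42 by edgeR, 0.45 by DESeq2, 0.07 after quantile normalisation, and 0.35 over the 10 receptors with a mean of 500 or more. EGFR was among these 10 through its foretinib mean of 1020, against 336 in DMSO and 269 in cabozantinib. Without foretinib 4 the median over the 30 tested receptors was 0.11. The median width of the 95% intervals was 9.55 for the receptors and 4.31 for all genes on the log2 scale.

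**Figure D3:**
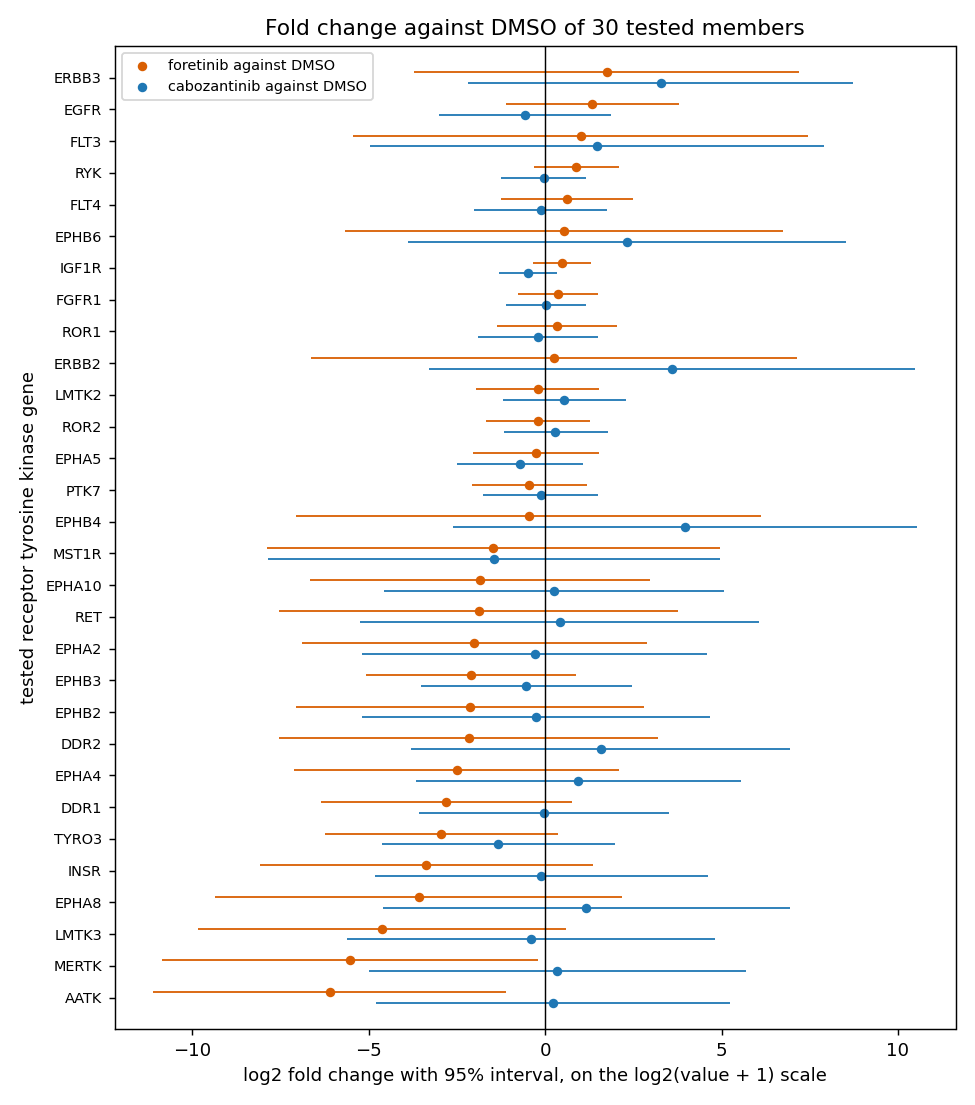
Log2 fold change with its 95% interval for the 30 tested receptors, foretinib against DMSO and cabozantinib against DMSO, ordered by the foretinib value. The same 3 DMSO libraries enter both, so the 2 values of a gene are not independent. Intervals are narrowest for abundant receptors such as IGF1R (-0.34 to 1.30 with foretinib), and AATK and MERTK are the genes whose foretinib intervals lie below 0.

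Cabozantinib was compared with the same DMSO libraries. Its intervals use a spread pooled over all 3 groups, so the SE equals that for foretinib (0.38 for IGF1R, 0.81 for LMTK2). At 1000 to 3000 in the other groups, the median SD of all genes was 50.2% of the mean in foretinib. It was 24.7% in cabozantinib and 28.6% in DMSO, so these intervals include foretinib spread. A fit to only the libraries compared also called 0 receptors. By limma 0 of 30 receptors passed an adjusted p of 0.05 (0% of all tested genes). By edgeR 0 of 30 receptors and 0% of all genes were called, and by DESeq2 0 of 29 receptors and 0.406% of all genes. At an unadjusted p below 0.05, 0 receptors were higher (0.878% of all tested genes) and 0 were lower (0.435%). No receptor was higher without overlap (5.18% of all tested genes), and 1, IGF1R, was lower without overlap (4.71%). The median over the receptors was 0.00 with 15 higher and 15 lower, beside 0.04 over all tested genes.

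IGF1R read 1464, 1002 and 1057 in cabozantinib, all below its DMSO values. The mean was 1174 ± 253, a ratio to DMSO of 0.729, with a log2 fold change of -0.48 (95% interval -1.30 to 0.34, limma adjusted p = 1.000). TYRO3 had the narrowest range of its 3 groups in cabozantinib, 212 to 273, and gave -1.33 (95% interval -4.64 to 1.99, limma adjusted p = 1.000). DMSO 4, at 251, lay inside that range, so the groups overlapped.

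The largest positive values in this comparison belonged to receptors with zeros in DMSO. EPHB4, an ephrin-B2 receptor, read 99.3, 224 and 312 in cabozantinib against 0, 6.03 and 263 in DMSO, a log2 fold change of 3.96 (95% interval -2.62 to 10.55). ERBB3, the kinase-impaired partner of ERBB2, read 397, 162 and 261 against 0, 326 and 56.8 (3.27, -2.19 to 8.73), and ERBB2 read 176, 285 and 12.3 against 0, 382 and 0 (3.59, -3.30 to 10.48). Without DMSO 2 the 3 values were 2.16, 0.90 and 2.16 in the same order. At a pseudocount of 100 they were 0.93, 0.94 and 0.44. All 3 had limma adjusted p = 1.000 and overlapping groups, and in foretinib they were again scattered, with ERBB2 and EPHB4 at 645 and 699 in foretinib 1 and at 0 in both other foretinib libraries. Among the abundant receptors, the log2 fold changes with cabozantinib were 0.03 for FGFR1, -0.13 for PTK7, 0.29 for ROR2, -0.04 for RYK and 0.54 for LMTK2. The widest of these 5 intervals ran from -1.21 to 2.28, for LMTK2, and the narrowest from -1.10 to 1.16, for FGFR1.

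The compounds were then compared with each other, at the same dose and time. No receptor passed an adjusted p of 0.05 by limma (0 of 30, beside 0% of all tested genes) or by edgeR (0 of 30, beside 0%). DESeq2 called 0 of 29 receptors, beside 5.14% of all genes. At an unadjusted p below 0.05, 1 receptor was higher with foretinib, IGF1R (1.83% of all tested genes), and 2 were lower, MERTK and AATK (8.08%). Without overlap, 2 receptors were higher with foretinib, IGF1R and RYK (4.49%), and 1 was lower, AATK (9.70%). The median over the receptors was -1.66 with 7 higher and 23 lower, beside -0.44 over all tested genes, and it was 0.09 by edgeR and 0.13 by DESeq2.

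For IGF1R the means were 2253 with foretinib and 1174 with cabozantinib, a ratio of 1.92. The log2 difference was 0.96 (SE 0.38, 95% interval 0.14 to 1.78, unadjusted p = 0.0250, limma adjusted p = 0.450), and over 19 alternatives it ran from 0.86 to 1.13 with adjusted p from 0.112 to 0.777. The interval excluded 0 and the adjusted p did not reach the threshold. IGF1R was the 1 receptor of 30 with every foretinib library above every DMSO library and every DMSO library above every cabozantinib library, an order found in 8 of all tested genes (0.0633%). The reverse order was found for 0 receptors and for 20 genes (0.158%). IGF1R was singled out for this order after its values were seen, and all 3 comparisons that make it up share libraries.

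RYK read 1420 to 1725 with foretinib and 655 to 1040 with cabozantinib, and its log2 difference was 0.92 (95% interval -0.29 to 2.12, limma adjusted p = 0.545). AATK read 502, 208 and 217 with cabozantinib, a log2 difference of -6.33 (95% interval -11.34 to -1.32, limma adjusted p = 0.416), and MERTK gave -5.88 (-11.22 to -0.55, limma adjusted p = 0.480). EPHA8 read 9.93, 126 and 209 with cabozantinib and 0, 14.4 and 0 with foretinib (-4.73, -10.50 to 1.04, limma adjusted p = 0.531), and LMTK3 gave -4.22 (-9.43 to 0.99, limma adjusted p = 0.535). After quantile normalisation EPHA8 gave 0.13 and LMTK3 gave 1.08, so neither direction held under that scaling. At a pseudocount of 100, AATK gave -1.79, MERTK -1.64, EPHA8 -0.91 and LMTK3 -0.64, and by edgeR MERTK gave -1.35. For FGFR1, PTK7, ROR2 and LMTK2 the log2 differences between the compounds were 0.34, -0.31, -0.51 and -0.75, with intervals of -0.79 to 1.46, -1.95 to 1.32, -1.98 to 0.97 and -2.50 to 1.00. Each of these intervals includes differences of more than 1 log2 unit.

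Detection was also counted library by library. In each library, 25, 31 and 33 of the 56 receptors were above 0 in DMSO, 32, 31 and 30 in cabozantinib, and 25, 25 and 20 in foretinib. Above 0 in all 3 libraries were 25 receptors in DMSO, 28 in cabozantinib and 14 in foretinib, and over all genes the shares were 45.4%, 48.1% and 35.9%. The summed level of the 56 was 21969, 18714 and 15693 with foretinib, against 14991, 16521 and 17009 in DMSO and 17851, 14809 and 15647 in cabozantinib. Single foretinib libraries were both at 0 and unusually high for the same gene: EPHA2 read 0, 541 and 1362, EPHA10 read 921, 869 and 0, EPHB2 read 754, 0 and 619, and FLT3 read 805, 0 and 0.

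The share of zeros varied with level. In foretinib, receptors and all genes had the same share of zeros at 100 to 300 (45.8% each), and near-equal shares at 300 to 600 (21.2%, or 7 of 33 values, and 20.3%). At 1000 to 3000 the receptors had none and all genes had 0.755%. In DMSO at 100 to 300 the shares were 18.2% and 20.7%, and in cabozantinib 6.67% and 15.0%.

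**Figure D4:**
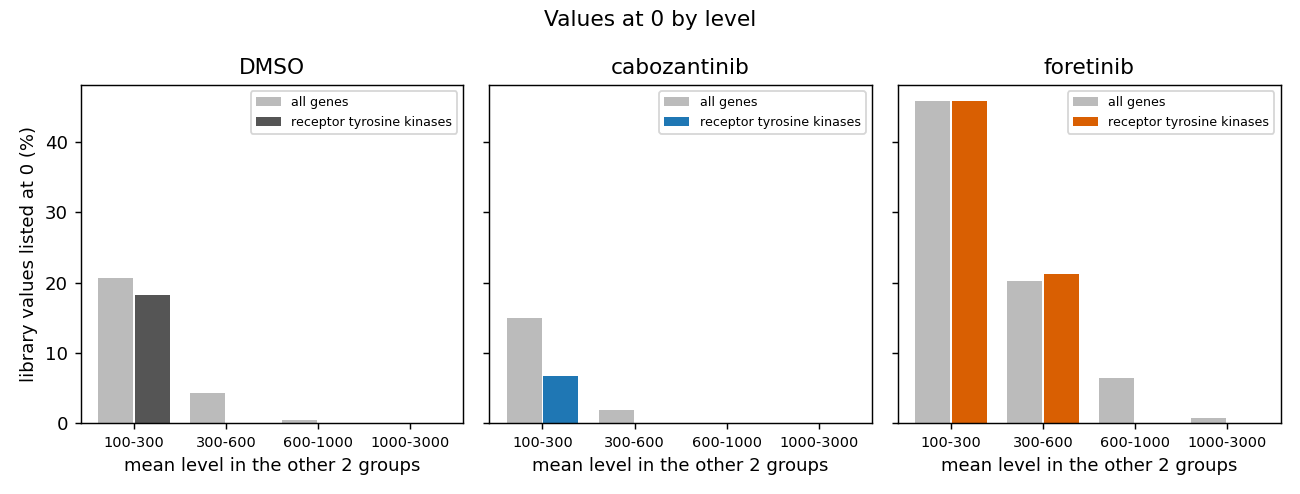
Share of library values listed at 0, by the gene's mean level in the other groups (normalised read count), for all genes (grey) and for the receptor tyrosine kinases (coloured), 1 panel per group. In foretinib 45.8% of the values were zeros at 100 to 300 for both sets, and the share was smaller at higher levels.

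The messages of the receptors' ligands were read from the same table. Of 75 ligand symbols, 74 were in the table, and VEGFD, a second symbol of FIGF, was not. Of these 74 genes, 25 were at 0 in all 9 libraries and 31 were tested. The 3 most abundant in DMSO were PROS1, the TAM ligand, at 5683, 6257 and 5880, MDK (midkine), a heparin-binding growth factor that binds ALK among others, at 3516, 2851 and 2277, and VEGFB, the FLT1 ligand, at 2907, 2165 and 1228. PROS1 had detected receptors in TYRO3 and MERTK, while FLT1 reached at most 3.92. ALK read 0, 108 and 1.96 in DMSO, 0, 171 and 0 in cabozantinib, and 0 in all 3 foretinib libraries. HGF, the MET ligand, WNT5A, and VEGFC and FIGF (VEGFD), the FLT4 ligands, were at 0 in all 9. Of the TEK ligands, ANGPT1 and ANGPT4 were at 0 in all 9, and ANGPT2 read 322 in foretinib 2 and 0 in the other 8 libraries. IGF2, an IGF1R ligand, read 171, 416 and 444 in DMSO, and IGF1 read 1.00 in DMSO 4 and 0 in the other 8 libraries.

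By limma 0 of the 31 tested ligands passed an adjusted p of 0.05 in each of the 3 comparisons. FGF2, an FGFR1 ligand, had the smallest p of the ligands with foretinib: it read 166, 688 and 223 in DMSO, 282, 259 and 384 in cabozantinib, and 0, 0 and 1.05 in foretinib. All foretinib libraries were below all others, with a log2 fold change against DMSO of -7.86 (95% interval -12.57 to -3.15, limma adjusted p = 0.358), and DESeq2 gave an adjusted p of 8.06e-06 while edgeR on the same reads called no gene. At the level of FGF2, 20.3% of all foretinib values were zeros, whose part in the value was not tested. At a pseudocount of 100, FGF2 gave -2.02. PTN (pleiotrophin) was at 0 in all 3 foretinib libraries and read 0, 216 and 173 in DMSO and 9.93, 132 and 99.2 in cabozantinib (DESeq2 adjusted p = 0.0256 and 0.0488 for foretinib against each, limma adjusted p = 0.531 and 0.487). By edgeR the adjusted p of PTN was 0.605 and 0.628, and at a pseudocount of 100 its log2 fold changes were -1.04 and -0.78. For cabozantinib against DMSO the ligands with the smallest p were VEGFA, at 1715, 2033 and 2029 against 552, 1301 and 1208 (1.01, 95% interval -0.17 to 2.18, limma adjusted p = 1.000), and EFNB3, at 823, 36.9 and 640 against 1251, 807 and 1102 (-1.93, -4.63 to 0.76, limma adjusted p = 1.000). Without DMSO 2 VEGFA gave 0.61, and without cabozantinib 4 EFNB3 gave -0.51.

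Co-receptors present ligands to the kinases or remove them. Of 18 co-receptor genes 12 were tested and 0 passed in each comparison by limma. Their sum was 5790 to 7348 in DMSO, 6139 to 7036 in cabozantinib and 8375 to 10271 in foretinib, and without IGF2R it was 4880 to 5683, 5338 to 6277 and 5687 to 7755, with overlap between cabozantinib and foretinib. IGF2R, which binds IGF2, has no kinase and carries it to lysosomes, read 237, 945 and 1665 in DMSO, 747, 758 and 802 in cabozantinib, and 2546, 2688 and 2516 in foretinib. Its log2 fold change was 1.84 against DMSO (95% interval 0.44 to 3.24, limma adjusted p = 0.442) and 1.75 against cabozantinib (0.35 to 3.14, limma adjusted p = 0.423, DESeq2 adjusted p = 0.0427). By edgeR on the same reads the adjusted p of IGF2R against cabozantinib was 0.628. NRP1, a VEGF co-receptor, read 2178, 1931 and 1683 in cabozantinib and 301, 1561 and 1459 in foretinib (-1.12, -2.43 to 0.19, limma adjusted p = 0.524). SDC4, a heparan sulfate proteoglycan, read 17.5, 35.2 and 43.1 in DMSO and 0 in all 3 foretinib libraries (limma adjusted p = 0.528, DESeq2 adjusted p = 5.97e-08). With foretinib all at 0, DESeq2 gave SDC4 a log2 fold change of -20.52, against -0.39 at a pseudocount of 100. By edgeR on the same reads the adjusted p of SDC4 was 0.616. NGFR, at 0 in all 3 DMSO libraries, read 101, 50.8 and 0 with cabozantinib (limma adjusted p = 1.000, DESeq2 adjusted p = 2.42e-06). With DMSO all at 0, DESeq2 gave NGFR a log2 fold change of 20.87, against 0.53 at a pseudocount of 100, and edgeR called no gene in this comparison. GFRA1, the GDNF co-receptor of RET, read 424, 391 and 472 with cabozantinib against 0.832, 194 and 179 in DMSO (3.42, -2.67 to 9.50, limma adjusted p = 1.000). Single libraries moved several of these values: without DMSO 2, IGF2R against DMSO gave 1.04 and GFRA1 gave 1.19, and without foretinib 1, NRP1 gave -0.35.

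Among 33 adaptor and effector genes, 30 were tested and 0 passed in each comparison by limma. PIK3R2, a regulatory subunit of PI3K, read 3102, 1202 and 1217 in DMSO, 1012, 1050 and 437 in cabozantinib, and 2704, 2720 and 2404 in foretinib. Its log2 difference between foretinib and cabozantinib was 1.75 (95% interval 0.65 to 2.85, limma adjusted p = 0.377, DESeq2 adjusted p = 0.0175), with no overlap between these groups. By edgeR on the same reads the adjusted p of PIK3R2 between the compounds was 0.579. Against DMSO, cabozantinib gave -1.10 (-2.19 to 0.00, limma adjusted p = 1.000). PIK3CA, the catalytic subunit, read 1128, 1100 and 343 in DMSO and 1922, 3830 and 1472 in foretinib (1.56, 0.30 to 2.81, limma adjusted p = 0.484). FRS2, the docking protein of FGF receptors, read 2496, 3126 and 3004 in DMSO and 210, 2196 and 1354 in foretinib (-1.74, -3.20 to -0.29, limma adjusted p = 0.497), and the groups did not overlap. CRKL, an SH2 and SH3 adaptor, gave -1.13 between the compounds (-2.21 to -0.05, limma adjusted p = 0.490), and PLCG2 gave 4.07 with cabozantinib (-1.64 to 9.79, limma adjusted p = 1.000). Without foretinib 1 FRS2 gave -0.73, without foretinib 2 CRKL gave -0.73, without DMSO 5 PIK3CA gave 0.99, and without DMSO 2 PIK3R2 with cabozantinib gave -0.64.

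Of 21 negative regulators 17 were tested and 0 passed in each comparison by limma. LRIG2, a membrane protein of a family that restrains receptor kinases, read 398, 929 and 410 in DMSO, 702, 518 and 571 in cabozantinib, and 15.6, 0 and 0 in foretinib. All foretinib values were below all others (log2 fold change -7.71 against DMSO, 95% interval -12.19 to -3.24, limma adjusted p = 0.358, DESeq2 adjusted p = 9.18e-05). By edgeR on the same reads the adjusted p of LRIG2 was 0.515. At a pseudocount of 100 LRIG2 gave -2.61, and at its level 20.3% of all foretinib values were zeros. STUB1, a ubiquitin ligase, read 2851, 2375 and 2447 in DMSO and 632, 1013 and 1596 in foretinib (-1.34, -2.32 to -0.36, limma adjusted p = 0.425), at a level, 1000 to 3000, where 0.755% of foretinib values were zeros. SH2B3 (LNK), an adaptor that curbs receptor signalling, gave -0.55 between the compounds (-1.07 to -0.02, limma adjusted p = 0.491), with foretinib 4 at 12175 above all cabozantinib libraries. With cabozantinib against DMSO the smallest p in this list belonged to PTPRK, a receptor phosphatase (-3.01, -7.74 to 1.72), and RNF41, a ubiquitin ligase for ERBB3 (0.36, -0.34 to 1.06), both with limma adjusted p = 1.000. Without foretinib 1 SH2B3 gave -0.26, and without cabozantinib 3 PTPRK gave -1.82 and RNF41 gave 0.13.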

How the data were processed

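The 9 RNA-seq libraries of H1155 cells, 3 per group, were analysed. The authors deposited 1 signal value per gene and library, a read count divided by 1 scaling factor per library. Build hs37d5, DESeq2, HTSeq, Cufflinks 2.2.1 and TopHat2 2.0.13 appear in the submitters' processing notes. The sources used here give neither the tools' roles nor the annotation or strand setting. All values (100%) in each column were whole multiples of 1 step within 1e-06 of a read, so reads could be recovered. For DMSO 4, cabozantinib 3 and cabozantinib 4 the step is too near 1 to tell this from rounding, and count tests served as alternatives only.

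The 12642 genes that reached 10 in 3 or more libraries were fitted as log2(value + 1) by limma-trend (limma 3.58.1, R 4.3.3), all 9 libraries in 1 model without covariates. Fold changes on this scale depend on the pseudocount where values are low, and zeros can make them larger than the ratio of means. Calls used Benjamini-Hochberg adjusted p below 0.05 over all tested genes. The fit was tested on simulated data in which only genes with a mean of 1000 or more changed. That simulation had the same noise setting in all groups and no added zeros. It therefore cannot show how the fit behaves for receptors of lower level or with the zeros of the foretinib libraries. Alternatives were edgeR 4.0.16 and DESeq2 1.42.0 on recovered reads, other scalings, pseudocounts and filters, a fit to only the libraries compared, a replicate block, and each library left out. Without molecular identifiers, a 0 was not turned into an upper limit. Strand being unstated, overlapping antisense genes cannot be told apart. Lengths came from GENCODE v29 (coding length known for 75.5% of the genes, exon length for 86.7%) and promoters from RefSeq GRCh38.p14.

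Named genes were every receptor with a mean of 1000 or more, every receptor listed here as a reported target, and the 5 receptors with the smallest p per comparison. Also named were the 2 genes with the smallest p per comparison and related list, and the 3 most abundant ligands. Others were named after their values were seen. The receptors and lists were chosen with earlier results of these data known.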

Additional observations from a re-analysis of the deposited data

How the results depend on the processing

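No receptor was called in any comparison under the 19 alternatives. The count over all genes was 0 for foretinib against DMSO and became 1 after quantile normalisation and 656 by DESeq2, for cabozantinib against DMSO it became 49 by DESeq2, and for foretinib against cabozantinib 621 by DESeq2; the cause was not tested. Leaving out any library gave 0 calls. Receptors detected in all 3 DMSO libraries numbered 25, with 20 to 35 under other detection rules and 25 to 29 when a library was left out.

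Directions that turned belonged to uncalled receptors, and the cause was not tested. For foretinib against DMSO, ROR2 gave 0.05 by edgeR and 0.08 by DESeq2, and LMTK2 gave 0.50 and 0.53. For foretinib against cabozantinib, PTK7 gave 0.09 by edgeR and 0.14 by DESeq2, LMTK2 0.03 by DESeq2, and EPHA8 0.13 and LMTK3 1.08 after quantile normalisation. With a library left out, foretinib against DMSO ranged from -0.94 to 0.53 for PTK7, -0.86 to 0.56 for ROR2 and -0.92 to 1.11 for LMTK2. Cabozantinib against DMSO ranged from -0.27 to 0.29 for FGFR1, -0.43 to 0.31 for PTK7, -0.15 to 0.55 for ROR2 and -0.42 to 0.38 for RYK, and foretinib against cabozantinib from -0.81 to 0.66 for PTK7, -1.16 to 0.26 for ROR2 and -1.45 to 0.58 for LMTK2.

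Same-numbered libraries did not deviate together (5 pairs, r 0 to 0.03, against -0.02 to 0.03 in 22 other pairs). With the replicate block, 0 receptors were called in each comparison, FGFR1 in cabozantinib against DMSO gave -0.36, and the receptors' median gave -0.35 for that comparison and -0.91 for foretinib against cabozantinib. What depth adds to the zeros was not tested. Foretinib 1, 2 and 4, with 34062153, 30195101 and 26996023 reads, had 16.3%, 18.3% and 21.0% of the tested genes at 0. DMSO 2, 4 and 5, with 32986439, 27257862 and 27715317 reads, had 10.9%, 5.30% and 5.58%. Cabozantinib 3, 4 and 5, with 27357395, 27522332 and 27264766 reads, had 4.41%, 5.13% and 5.48%.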
